A study of Solanum lycopersicum with 6 samples.

Results

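Of the 34722 genes in the deposited table for tomato (Solanum lycopersicum) shoot apices, 98 stood at least 3-fold higher in the pin induced by TIBA (triiodobenzoic acid) than in any lfs or WT library. They were chosen on DESeq2-normalized counts, which are read counts per gene divided by a size factor per library. A gene belonged to the set when the lower of its TIBA values was at least 30 and at least 3 times the highest lfs or WT value plus 1. The choice used the values of all 6 libraries, so the excess in TIBA describes the set and is not tested. The 3 groups held 2 libraries each, from seedlings grown for 14 to 18 days. TIBA samples were the meristem of pin-like shoots produced by spraying 1 mM TIBA, and the labels give them no mutant genotype. The lfs samples were the meristem of the leafless (lfs) mutant, with no TIBA named. WT samples were the wild-type meristem together with its 2 youngest leaf primordia, again with no TIBA named. The labels do not say whether lfs or WT plants received a mock spray, nor whether the repeats came from separate batches of plants. P-values therefore cover the spread seen among the deposited samples, part of which may be technical. TIBA, the spray and the pin shape came together in 1 group, so what each adds to the level of a gene cannot be told apart.

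Auxin is a plant hormone that is moved from cell to cell by efflux carriers of the PIN family, and local auxin maxima at the flank of the shoot meristem mark where leaves will start. TIBA blocks this polar transport, and a shoot apex treated with such an inhibitor grows on as a bare pin. The lfs mutant also makes no leaves, but through a gene defect. The genes described here are those highest in the TIBA pin, and some of them were also higher in lfs than in WT, so they were not all raised in the pin alone. Neither the deposited table nor the reference gene table pairs these identifiers with gene names (0 of 34722 matched), so no function is given to any gene here and the tissue could not be checked against marker genes. The chromosome is read from the number that each identifier carries by convention. Other genes are told apart by chromosome and value, and only 4 identifiers are printed.

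Recovered reads ranged from 17640302 to 26054787 per library. The 98 genes took 0.964% and 1.11% of the reads in TIBA, 0.113% and 0.0830% in lfs, and 0.0849% and 0.0665% in WT. The 5 genes with TIBA means above 10000 supplied 57.4% and 54.7% of the set's reads in the TIBA libraries. Mean TIBA values ran from 35.1 to 54899.7 with a median of 281.6, while the medians of the group means were 12.8 in lfs and 14.1 in WT. Between 30 and 100 lay 31 of the TIBA means, 37 lay between 100 and 1000, and 25 between 1000 and 10000. Normalized counts are not divided by gene length, so the order of genes by level partly follows their lengths.

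**Figure D1:**
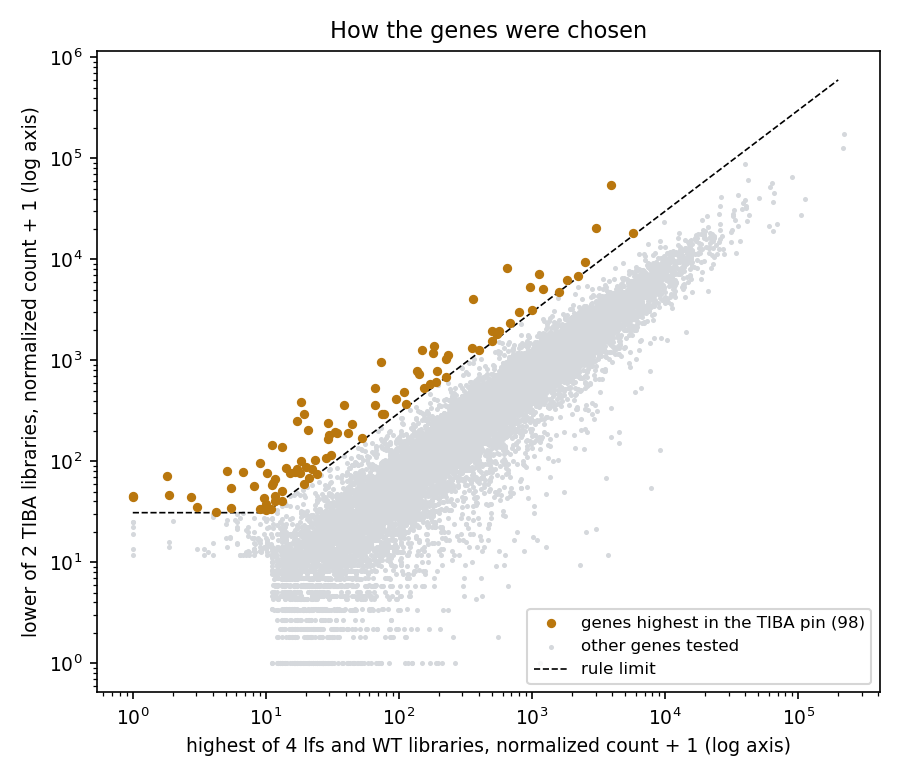
Each point is a gene, with the highest of its lfs and WT values (normalized count + 1, log axis) across and the lower of its TIBA values (same unit, log axis) up, and the dashed line is the limit of the rule. The 98 chosen genes (orange) lie along the upper edge of the cloud of other tested genes (grey), many of them close to the limit.

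Many of the genes lay near the limit. The ratio of the lower TIBA value to the highest lfs or WT value plus 1 had a median of 4.76 and reached 43.8, with 38 genes between 3 and 4, 13 between 4 and 5, 29 between 5 and 10, and 18 above 10. The gene nearest to the fold limit from inside stood at 4789 in its lower TIBA library against 1589.9 in its highest other library (ratio 3.01), and the nearest from outside at 865.4 against 289.7 (ratio 2.98). At the minimum of 30, the lowest gene inside had 30.6 against 3.25, and the highest gene outside had 29.8 against 5.69. Another 29 genes met the fold with a lower TIBA value between 10 and 30.

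The comparison with lfs removed far more genes than the comparison with WT. Against WT alone 601 genes met the rule, and 503 of them did not meet it against lfs, so the set is 16.3% of the genes that stood 3 times above WT. Against lfs alone 182 genes met it, of which the set makes up 53.8%. The same rule applied with the other groups on top gave 92 genes for lfs and 122 for WT. Single libraries weighed on the count of 98. With lfs repeat 1 left out 212 genes met the rule, so 114 were kept out by that library alone. Without TIBA repeat 1 the count was 243, and without TIBA repeat 2 it was 155.

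The gene with the most TIBA reads, Solyc02g084850.2 on chromosome 2, stood at 55333 and 54467 in TIBA, 3898 and 465.9 in lfs, and 477.6 and 112.7 in WT. Its TIBA repeats lay close together, whereas lfs repeat 1 was far above lfs repeat 2 and WT repeat 1 above WT repeat 2. The TIBA mean was 54899.7 ± 612 (SD, n = 2), 25.2 times the lfs mean of 2182 ± 2427 (SD, n = 2) and 186 times the WT mean of 295.1 ± 258 (SD, n = 2). This gene alone held 0.259% and 0.258% of all reads in the TIBA libraries.

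The other 4 genes with TIBA means above 10000 differed in how far lfs and WT stood below. A chromosome 10 gene had 20472 and 22787 in TIBA, 3023 and 2408 in lfs, and 380.6 and 258.2 in WT, which puts TIBA 7.96 times above lfs and 67.7 times above WT. Both lfs values of this gene lay above both WT values, so lfs was in the middle. A chromosome 7 gene had 24633 and 18071 in TIBA, 2322 and 5699.7 in lfs, and 1514 and 1615 in WT. Its lfs repeat 2 was the highest library outside TIBA, and this gene passed the limit narrowly. A chromosome 6 gene had 9328 and 12570.3 in TIBA, 2477 and 1329 in lfs, and 655.3 and 491.3 in WT, again with lfs between the others. The last, on chromosome 2, had 8228 and 20707 in TIBA, 29.4 and 1.63 in lfs, and 644.6 and 646.4 in WT. Here the order of lfs and WT was the opposite, and the TIBA repeats differed widely.

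**Figure D2:**
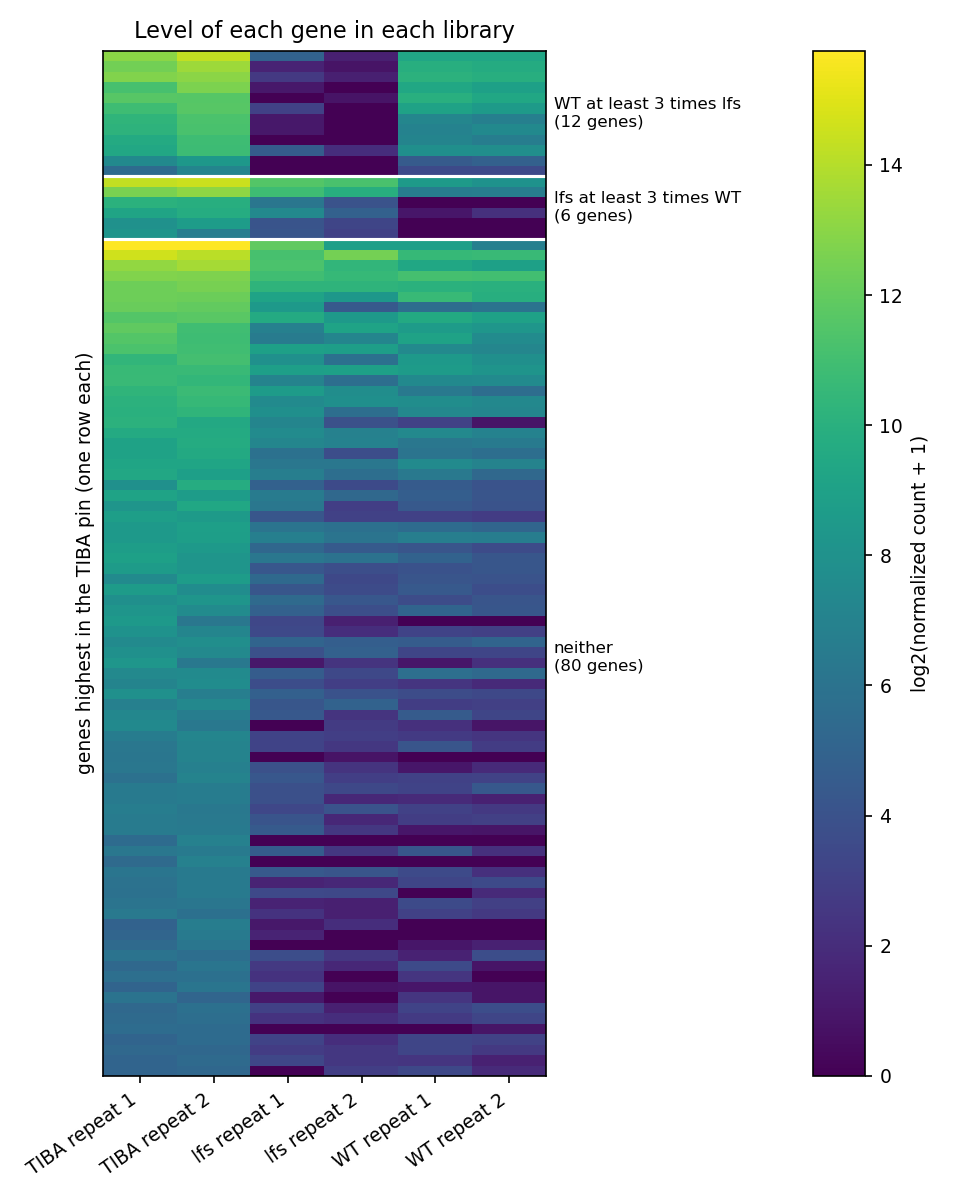
Colour gives log2(normalized count + 1) of each of the 98 genes (rows) in each of the 6 libraries (columns), with the genes in 3 blocks by how lfs and WT compare and ordered by TIBA mean within a block. The top block of 12 genes is dark in both lfs libraries and intermediate in WT, the second block of 6 is lower in WT than in lfs, and the remaining 80 are lower than TIBA in both.

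At the other end were genes with few or no reads outside the pin. No read was found in lfs or WT for 2 genes, both on chromosome 3. Solyc03g044840.1, the gene with the highest ratio of the set, had 43.8 and 122.1 in the TIBA libraries, from 53 and 102 reads, against 0 in the 4 others. With 3 reads per library as the floor, TIBA was at least 30.3-fold higher than lfs and at least 31.4-fold higher than WT. The second such gene had 43.0 and 118.5 in TIBA, at least 29.5-fold higher than lfs and at least 30.5-fold higher than WT. In both genes TIBA repeat 2 was the higher library. Both group means outside TIBA were under 10 for 30 genes, 7 genes had no read in lfs and 9 had none in WT. Floors and intervals cover counting error only.

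In bulk tissue, fewer cells that express a gene and less RNA per cell cannot be told apart, and WT samples alone held leaf primordia. With limma on log2(normalized count + 1), fitted over 19807 genes with Benjamini-Hochberg adjustment, 94 of the 98 genes were called higher in TIBA than in WT at an adjusted p under 0.05, against 10.8% of all genes tested. Higher in TIBA than in lfs were 85, against 2.64% of all genes tested. The rule used both contrasts, so these counts describe the chosen genes and are not a test. All 98 passed the filter on low values (10 in at least 2 libraries), but 37 of them passed only through their TIBA values. The median log2 difference of the set was 3.60 for TIBA against WT (0.01 over all genes tested) and 3.71 for TIBA against lfs (-0.02 over all genes tested). Both calls were met by 82 of the 98 genes (277 of all 19807 tested), the call over WT only by 12, the call over lfs only by 3 and neither by 1. In the authors' deposited table the calls were 94 over WT, against 8.3% of all genes with an adjusted p there, and 90 over lfs, against 3.3%. Several left-out libraries lowered the counts, while leaving out either lfs library gave 95 over WT. Over WT the counts were 59 without TIBA repeat 2 (7.13% of all genes tested), 61 without WT repeat 1 (2.65%) and 57 without WT repeat 2 (2.95%). Over lfs they were 48 without TIBA repeat 2 (1.72% of all genes tested) and 30 without lfs repeat 2 (0.449%). Leaving out TIBA repeat 1 alone put 20 of the genes below the filter, so that they could not be called. Leaving out TIBA repeat 2 alone also put 20 below it.

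The rule set an upper limit for lfs and WT but did not use the difference between them. The counts for lfs against WT still draw on values that the rule capped, and 37 of the genes were tested only because of their TIBA values, so the shares beside all genes are a description. Of the 98 genes, 12 were higher in lfs than in WT (12.2%, against 8.9% of all genes tested) and 14 were lower (14.3%, against 5.29%), and 72 were not called (limma, adjusted p under 0.05). Calls in the authors' deposited table came to 12 higher, against 7% of its genes, and 14 lower, against 4.6%. Although these counts equal those of limma, the genes called were not all the same in either direction. Solyc02g084850.2 was called higher in lfs there (DESeq2, adjusted p 0.0275) but not by limma (adjusted p 0.158). A chromosome 11 gene was called higher by limma (adjusted p 0.0483) but not there (DESeq2, adjusted p 0.0623). The median log2 difference was 0.04 in the set and -0.0010 over all genes tested, with a range in the set from -9.25 to 5.11. Both lfs libraries lay above both WT libraries for 33 genes (33.7%, against 33.6% of all genes tested) and below them for 24 (24.5%, against 33.1%). The 26 called genes, against 14.2% of all genes tested, became 15 without WT repeat 1 (2.73% of all genes) and 17 without WT repeat 2 (4.35%). With only the lfs and WT libraries in the fit 24 were called, against 22.7% of all genes tested, so the share of the set was then near that of all genes.

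A block of 12 genes was lower in lfs than in WT. In each, the lower WT library was at least 3 times the higher lfs library plus 1. These 12 genes are 12.2% of the set, against 1.72% of all genes tested, and the block was picked out after the values were seen. Mean values ran from 92.5 to 14467 in TIBA (median 2197), from 0 to 15.5 in lfs (median 0.51), and from 10.6 to 1032 in WT (median 341.3). TIBA stood 3.82 to 22.4 times above WT in these genes (median 8.99). The order of TIBA, WT and lfs in these genes is fixed by the choice of the set and of the block. Limma called 12 lower in lfs than in WT, 12 higher in TIBA than in lfs and 10 higher in TIBA than in WT. These calls draw on the values used for that choice, so they are not a test.

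A neighbouring pair on chromosome 3, also chosen after its values were seen, belongs to this block. Solyc03g034380.1 had 1258 and 2473 in TIBA, 1.01 and 0 in lfs, and 147.2 and 110.9 in WT. Its lfs value was a single read, and WT exceeded lfs by a ratio of 285.5 (exact 95% interval 50.8 to 11313). Solyc03g034390.1, the next identifier, had 791.7 and 1829 in TIBA, no read in lfs, and 134.7 and 103.1 in WT. In lfs it was at least 43.4-fold lower than in WT. TIBA was at least 478-fold higher than lfs for the second gene. Both genes had the higher TIBA value in repeat 2 and the higher WT value in repeat 1. That the groups did not overlap in either gene follows from the choice of the set and of the block.

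Chromosome 9 carried 3 more of the 12. The first had 7102 and 8385 in TIBA, 5.06 and 1.63 in lfs, and 1136 and 928.1 in WT, so that TIBA was 2315 times lfs and 7.50 times WT. The second had 5340.2 and 11202 in TIBA, 2.03 and 0.81 in lfs, and 957.0 and 835.4 in WT. The third had 2321 and 6438 in TIBA, 1.01 and 0 in lfs, and 681.4 and 498.3 in WT. In all 3 genes lfs rested on 7 reads or fewer over both libraries. A chromosome 8 gene had 1853 and 3203 in TIBA, 7.09 and 0 in lfs, and 538.6 and 382.1 in WT. A chromosome 12 gene had 1182 and 2409 in TIBA, 1.01 and 0 in lfs, and 126.6 and 179.4 in WT. Chromosome 7 held 2 such genes, of which the first had 688.3 and 1779 in TIBA, 23.3 and 3.25 in lfs, and 225.3 and 219.2 in WT. Among the 12, this gene and the chromosome 8 gene were the pair that limma did not call higher in TIBA than in WT, whereas edgeR on the recovered reads called both. The second chromosome 7 gene had 180.4 and 341.1 in TIBA, no read in lfs, and 21.5 and 28.6 in WT. A chromosome 3 gene had 3212 and 3167 in TIBA, 0 and 0.81 in lfs, and 998.3 and 672.4 in WT, and was the only gene of the block whose TIBA repeat 1 was the higher. The lowest of the block, on chromosome 2, had 43.8 and 141.2 in TIBA, no read in lfs, and 10.8 and 10.4 in WT. The chromosome 2 gene described among the highest TIBA means completes the block.

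**Figure D3:**
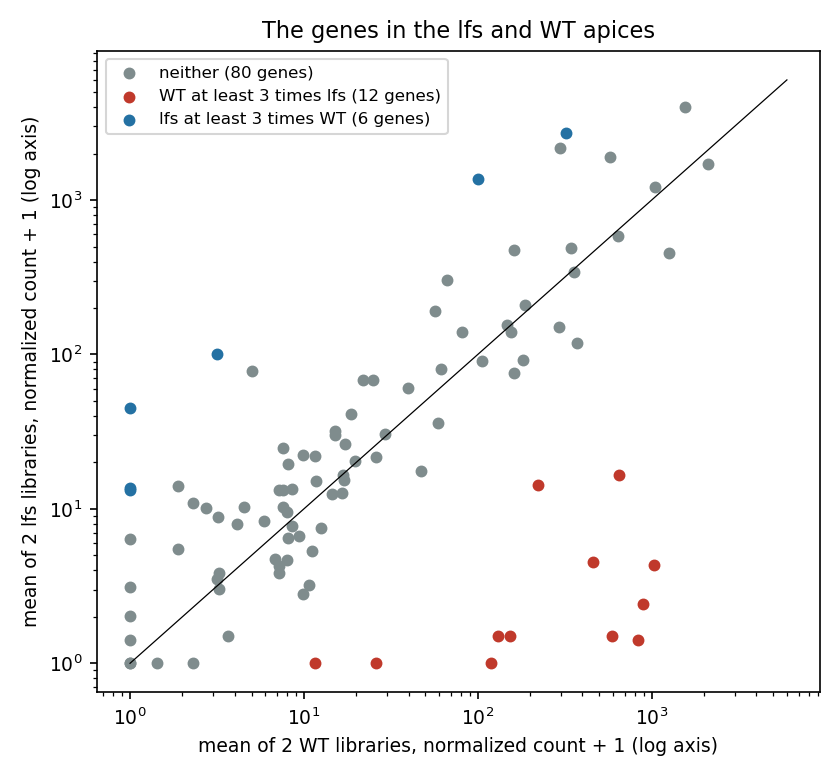
Each point is a gene of the set, with the mean of the WT libraries across and the mean of the lfs libraries up (normalized count + 1, log axes), and the line marks equality. The 12 genes in red fall far below the line with lfs means of at most 15.5, and the 6 genes in blue lie above it.

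Another 6 genes were partly raised in lfs, with the lower lfs library at least 3 times the higher WT library plus 1 (6.12% of the set, against 3.42% of all genes tested). Their TIBA means ran from 189.7 to 21629.5 with a median of 867.4, their lfs means from 12.3 to 2716 with a median of 71.5, and their WT means from 0 to 319.4 with a median of 1.09. A chromosome 1 gene had 6222 and 8833 in TIBA, 1822 and 931.0 in lfs, and 97.9 and 99.7 in WT, which is 5.47 times lfs and 76.2 times WT. A second chromosome 1 gene had 580.8 and 848.6 in TIBA, 170.2 and 28.5 in lfs, and 0.90 and 3.47 in WT. Its lfs repeats differed more than its TIBA repeats. The neighbouring pair on chromosome 6 had no WT read in either gene. The first of the pair had 247.4 and 411.7 in TIBA and 16.2 and 8.94 in lfs, and TIBA was at least 124.5-fold higher than WT. The second had 1081 and 958.8 in TIBA and 71.9 and 15.5 in lfs, and TIBA was at least 385-fold higher than WT. A chromosome 9 gene had 278.8 and 100.5 in TIBA, 17.2 and 7.32 in lfs, and no WT read. The sixth was the chromosome 10 gene given above. This block too was picked out after the values were seen. Limma called 6 higher in lfs than in WT, 6 higher in TIBA than in WT and 5 higher in TIBA than in lfs. These calls draw on the values used for the choice, so they are not a test. The authors' deposited table (DESeq2) did not call lfs against WT for the first chromosome 1 gene (adjusted p 0.122). Nor did it for the first of the chromosome 6 pair (0.0683) or the chromosome 9 gene (0.0741).

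For the remaining 80 genes the libraries of lfs and WT did not all differ by these limits, although limma called 6 of them higher and 2 lower in lfs than in WT. Their medians were 198.5 in TIBA, 15.0 in lfs and 10.7 in WT, and TIBA exceeded WT by a median of 11.0 times among those with more than 3 WT reads. A chromosome 9 gene had 7079 and 6813 in TIBA, 1916 and 1508 in lfs, and 2227 and 1992 in WT, the highest WT mean of the set. Both lfs values lay below both WT values, but limma did not call that difference (adjusted p 0.255). The gene passed the limit with a ratio of 3.06. A chromosome 5 gene had 5046 and 5916 in TIBA, 1198 and 1212 in lfs, and 1084 and 1014 in WT, with the lfs and WT levels near each other. A chromosome 7 gene had 455.8 and 384.2 in TIBA, 17.2 and 7.32 in lfs, and 7.18 and 6.07 in WT, and its ratio of 21.1 was among the 5 ratios above 20.

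Repeats within a group differed for many of these genes. The higher TIBA repeat was a median of 1.42 times the lower, within 1.5 times for 56 genes and at least 2 times for 22. Among these 22, repeat 2 was the higher in 16 and repeat 1 in 6. The largest gap, 4.70-fold, belonged to a chromosome 9 gene with 354.1 and 75.4 in TIBA, 9.12 and 1.63 in lfs, and no WT read. Taken over the set, TIBA repeat 2 was above repeat 1 for 61 genes (62.2%, against 52.2% of all genes tested). In the block of 12 genes lower in lfs than in WT this held for 11. Their median ratio of repeat 2 to repeat 1 was 2.07, compared with 1.27 in the block of 6 and 1.12 in the other 80. Had TIBA repeat 1 been the only TIBA library, 155 genes would have met the rule, and with repeat 2 alone 243, of which the set is 63.2% and 40.3%.

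The lfs repeats differed mostly in 1 direction. In lfs repeat 1 the value was higher than in repeat 2 for 75 of the 98 genes (76.5%), lower for 16 and equal for 7, whereas 49.8% of all genes tested were higher in repeat 1. Among the 20 genes with an lfs mean of at least 100, repeat 1 was the higher for 14, compared with 45.7% of all tested genes at that level. WT repeat 1 was likewise above WT repeat 2 for 64 genes (65.3%, against 48.5% of all genes tested). Among the 29 genes with a WT mean of at least 100 this held for 25, compared with 47.6% of all tested genes at that level. The highest library outside TIBA was lfs repeat 1 for 46 genes, WT repeat 1 for 28, lfs repeat 2 for 12 and WT repeat 2 for 10. The median SD between repeats, on the log2(normalized count + 1) scale, was 0.36 in TIBA, 0.70 in lfs and 0.29 in WT for the set, against 0.23, 0.16 and 0.092 over all genes tested (n = 2 each). The set had a median of 27 reads over both lfs libraries and 32 over both WT libraries, so the lfs and WT spreads include counting error. What else differs between repeats was not tested.

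**Figure D4:**
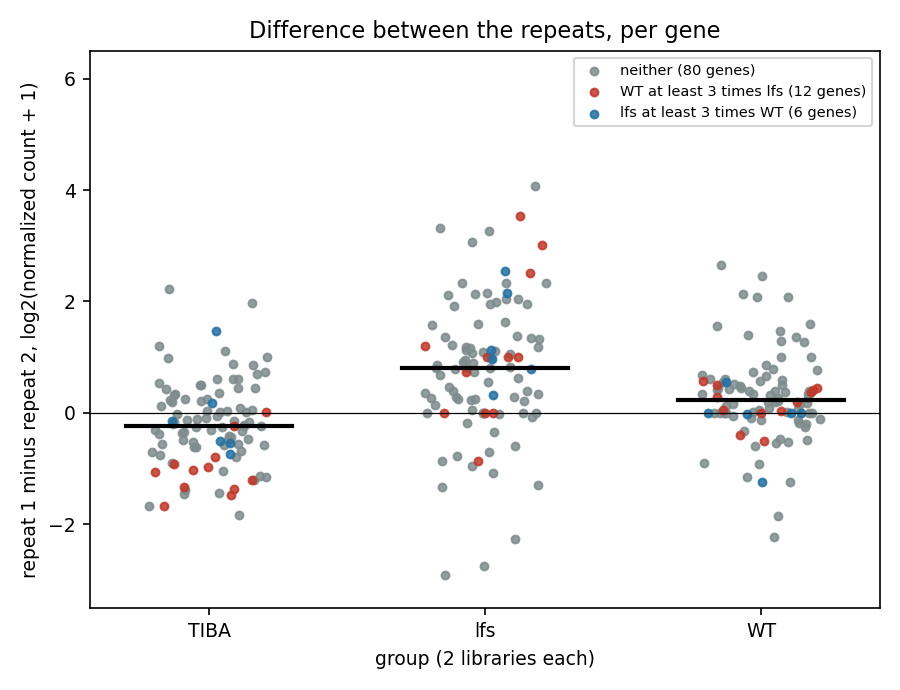
Points give repeat 1 minus repeat 2 on the log2(normalized count + 1) scale for each of the 98 genes in each group of 2 libraries, coloured by block, with the median as a black bar. The medians are -0.23 in TIBA, 0.81 in lfs and 0.24 in WT, and the red genes lie mostly below 0 in TIBA.

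By their identifiers, 97 of the genes lay on the 12 numbered chromosomes and 1 was not placed. Chromosome 3 carried 14 (14.3% of the set, against 10.6% of all genes tested), chromosomes 6 and 9 carried 13 each (13.3%, against 8.91% and 7.10%), and chromosomes 1 and 7 carried 11 each (11.2%, against 12.8% and 7.34%). Chromosomes 4 and 12 carried 3 each (3.06%, against 8.23% and 6.32%). Chromosome 9 had the highest share of its tested genes in the set among the 12, 0.924%, and chromosome 4 the lowest, 0.184%. These shares are descriptions of 98 genes and were not tested. Along the order of identifiers 28 genes fell in the first part of their chromosome, 32 in the middle part and 37 in the last part, with each part holding equal numbers of identifiers (28.9%, 33.0% and 38.1%, against 30.8%, 28.8% and 40.4% of all genes tested).

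**Figure D5:**
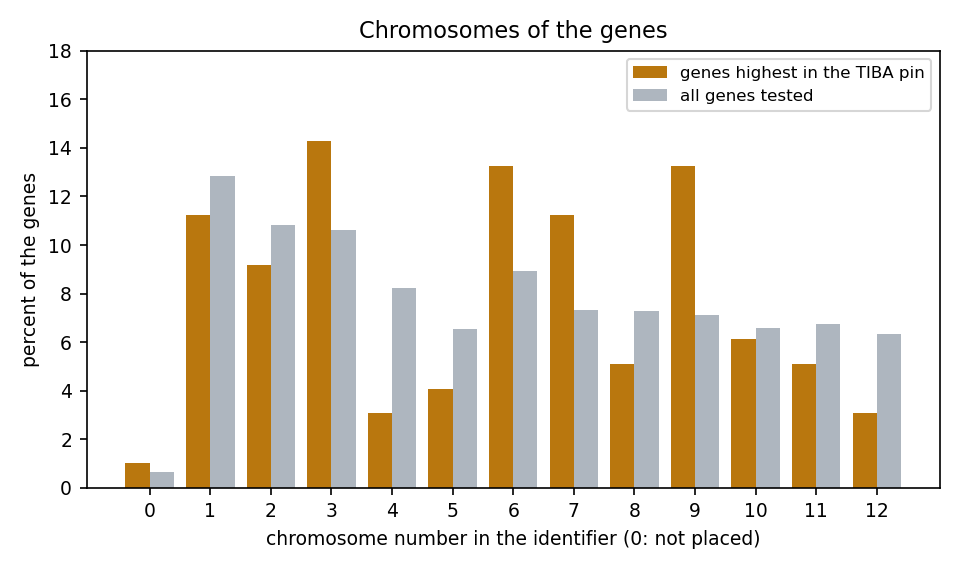
Bars give the percent of the 98 genes (orange) and of all genes tested (grey) whose identifier carries each chromosome number. Chromosome 9 holds 13.3% of the set and 7.10% of the tested genes, and chromosome 4 holds 3.06% and 8.23%.

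Several genes stood side by side. In 5 cases consecutive identifiers were both in the set, on chromosomes 1, 2, 3, 6 and 7, and on chromosome 10 a single identifier separated a pair. Pairs on chromosomes 5 and 9 had 9 and 8 identifiers between them. How many such pairs other sets of tested genes would hold was not counted, so these numbers are a description. Neighbours did not always share a pattern. Both genes of the chromosome 3 pair were nearly silent in lfs, and both genes of the chromosome 6 pair had no WT read, although their higher TIBA repeats were not the same. The chromosome 2 pair joined a gene with 4644 and 4013 in TIBA, 359.6 and 20.3 in lfs, and 49.4 and 62.4 in WT with the gene at 8228 and 20707 in TIBA, which lay lower in lfs than in WT. On chromosome 7 the gene without an lfs read stood beside a gene with 311.9 and 79.0 in TIBA, 1.01 and 4.07 in lfs, and 0.90 and 3.47 in WT, and their higher TIBA repeats were not the same. The chromosome 1 pair had 46.3 and 45.5 in TIBA, no lfs read, and 0 and 0.87 in WT for the first gene, and 397.9 and 201.1 in TIBA, 17.2 and 11.4 in lfs, and 19.7 and 12.1 in WT for the second. On chromosome 10 the partner of the gene at 20472 and 22787 had 1042 and 1245 in TIBA, 225.9 and 50.4 in lfs, and 163.4 and 146.4 in WT. How reads matching more than 1 gene were counted is not given in the sources used here, nor whether counting used the strand. Whether reads were misassigned between adjacent genes was not tested.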

How the data were processed

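RNA sequencing covered 6 libraries from tomato shoot apices, 2 each for TIBA pins, lfs and WT. The submitters' processing notes name TopHat2 (2.0.10), HTSeq (0.6.1p1) and DESeq2 (1.6.3). For build, annotation and settings, the sources used here give nothing. The deposited signal is normalized counts, read counts divided by 1 size factor per library, per the file headers. The authors' log2 fold changes and p-values for 3 comparisons were deposited beside them. Each of the 208332 values (100%) was a whole number of reads to within 0.001 after division by the smallest non-zero value of its library, which gave the reads back. No sample column was left unused.

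The main test was limma (version 3.58.1, in R 4.3.3) applied to log2(normalized count + 1), all 3 groups in 1 fit with an intensity trend and robust moderation, for 19807 genes with at least 10 in 2 libraries. Fold changes on this scale understate those of low genes. Alternatives were edgeR (4.0.16) and DESeq2 (1.42.0) on recovered reads, a pseudocount of 5, no filter, a replicate block, only the 4 libraries compared, an adjusted p under 0.01, other limits of the rule, TMM scaling, and leaving out each library. The genes, blocks and tests were chosen with earlier results of these data known. The naming rule allowed 2 identifiers, the highest ratio and the highest TIBA mean, because no names could be paired; the chromosome 3 pair was added later.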

Additional observations from a re-analysis of the deposited data

How the results depend on the processing

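The count of 98 genes rests on the limits of the rule. It was 200 with a fold of 2, 47 with a fold of 5, 61 with a minimum of 100 and 127 with a minimum of 10, and TMM scaling gave 98 genes of which 97 were shared. Leaving out a library gave between 98 and 243 genes. Of the 98 genes, those called higher in TIBA than in WT numbered between 57 and 95 when a library was left out (2.65% to 16.2% of all genes tested), those called higher in TIBA than in lfs between 30 and 73 (0.449% to 5.6%), and those called in lfs against WT between 15 and 27 (2.73% to 22.7%). Where this leaves a group with 1 library, that library is assumed to vary like the others. At an adjusted p under 0.01 the 85 genes over lfs became 43 (0.616% of all genes), and the 26 called in lfs against WT became 14 (4.91%). The other alternatives stayed within 1.5 times of the main counts. With a replicate block the 3 counts were 91, 72 and 26 (8.3%, 1.49% and 10.6% of all genes). The labels do not say that the repeat numbers pair samples. Across genes, the differences between repeats correlated with r = -0.14 (TIBA and lfs), -0.0515 (TIBA and WT) and 0.015 (lfs and WT). With 2 libraries per group these values cannot show whether same-numbered libraries shared a batch. Pairing TIBA repeat 1 with lfs repeat 2 in the 4 libraries called 94 genes over lfs (3.75% of all genes). The same libraries unblocked called 68 (1.18%). This pairing was chosen after seeing the data and has no basis in the labels, so the higher count is not a test. With 2 libraries per group and a median of 27 reads in lfs and 32 in WT, small differences between lfs and WT were not detectable for many of these genes. Solyc02g084850.2 was called over lfs by limma (adjusted p 0.0386) and DESeq2 (0.00189). EdgeR (0.0555), limma without the filter (0.0756) and limma on the 4 libraries alone (0.11) did not call it. Solyc03g044840.1 was called over WT and over lfs by limma (0.00347 and 0.00818) and edgeR (0.0122 and 0.0296). DESeq2 called it over neither (0.171 and 0.259). The rule used these contrasts, so such calls are not a test.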
